A study of Homo sapiens with 4 samples.

Results

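The genes described here are the 10 core and upstream members of the Hippo kinase cascade, namely NF2, WWC1 and TAOK1 upstream, the MST kinases STK3 and STK4 with their scaffold SAV1, and the LATS kinases LATS1 and LATS2 with their coactivators MOB1A and MOB1B. They were taken by name, with no threshold on their values, from 62443 genes with an FPKM value, that is, fragments normalised to gene length and library size. The RNA came from HGC-27, a line of human gastric cancer cells, in 4 libraries. The 2 GLUP libraries came from cells treated with 10 μg/ml GLUP, a cyclized peptide built from the TEAD4-binding motif of VGLL4, and the 2 control (Con) libraries from cells labelled as untreated, which the study's methods describe as given the peptide's stocking buffer (20 mM HEPES and 100 mM NaCl). The time of treatment is uncertain, since both 12 h and 48 h are given for it. No sample was genetically modified, and all 4 libraries are from 1 cell line.

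The Hippo pathway restrains growth through a chain of kinases. NF2 (merlin) and WWC1 (KIBRA) gather the cascade at the membrane, TAOK1 and related kinases activate the MST kinases, and MST with SAV1 phosphorylates LATS and MOB1. Active LATS phosphorylates the coactivators YAP and TAZ, which are then held in the cytoplasm or degraded, so that TEAD factors lose their activating partners. LATS2 and NF2 are also known as targets of YAP and TEAD in other cells, a negative feedback.

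Promoter sequences of 9 of the 10 members were matched by symbol in RefSeq on GRCh38.p14, as windows of 300 bases that run from 250 bases before to 50 bases after a transcription start. They were searched for GGAATG, the core of the M-CAT element that TEAD factors bind, and its reverse complement CATTCC. Of the 9 members, which have 13 windows, 1 (LATS2) held the core in a window, as did 16.7% of all 27305 genes with a window. The window of LATS2 is shown because it holds the core (in capitals, bases 260 to 265, just after the start), that of NF2 because NF2 was the member that was higher with GLUP, and that of MOB1A because MOB1A was the most abundant member. NF2 and MOB1A each have a further listed start, whose window is not shown. A match is a description of the letters and not evidence of binding.

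LATS2, minus strand of chr13:21061537-21061836: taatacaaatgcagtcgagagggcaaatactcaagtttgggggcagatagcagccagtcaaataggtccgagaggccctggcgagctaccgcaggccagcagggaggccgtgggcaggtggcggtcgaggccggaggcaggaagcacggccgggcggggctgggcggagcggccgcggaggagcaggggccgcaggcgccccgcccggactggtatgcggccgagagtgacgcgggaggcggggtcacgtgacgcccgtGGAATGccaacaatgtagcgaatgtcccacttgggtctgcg

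NF2, plus strand of chr22:29603383-29603682: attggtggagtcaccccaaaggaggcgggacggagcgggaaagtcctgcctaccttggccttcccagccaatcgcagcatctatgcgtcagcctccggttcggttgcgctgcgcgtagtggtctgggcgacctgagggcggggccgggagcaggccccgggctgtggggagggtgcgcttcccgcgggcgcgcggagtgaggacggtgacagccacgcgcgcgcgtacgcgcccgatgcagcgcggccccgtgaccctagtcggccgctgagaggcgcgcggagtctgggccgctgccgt

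MOB1A, minus strand of chr2:74178830-74179129: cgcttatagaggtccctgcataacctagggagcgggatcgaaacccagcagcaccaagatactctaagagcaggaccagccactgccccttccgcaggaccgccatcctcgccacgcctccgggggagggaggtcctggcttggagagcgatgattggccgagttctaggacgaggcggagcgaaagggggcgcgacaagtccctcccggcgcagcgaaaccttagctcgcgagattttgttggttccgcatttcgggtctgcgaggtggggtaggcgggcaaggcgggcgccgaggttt

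These windows were rich in G and C, with 67.7% for LATS2, 72.0% for NF2 and 63.3% for MOB1A, whereas the transcripts behind them differed in composition, as given further on.

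Over the libraries as a whole, the sum of FPKM was between 909735 and 949919, and the depth is unknown because the values are not counts. On the log2(FPKM + 1) scale, over the 7588 genes tested, Pearson's r was 0.986 between the GLUP replicates and 0.933 between the control replicates. Control replicate 1 was closer to the GLUP libraries (0.952 and 0.957) than to control replicate 2, which stood apart from them (0.873 and 0.886). VIM was the most abundant of 4 mesenchymal markers, between 293 and 387 FPKM. FN1 stood at 1.15 and 3.25 FPKM in control cells and at 0.655 and 0.671 FPKM with GLUP, and CDH2 did not exceed 0.0508 FPKM. The 6 epithelial markers summed to between 3.07 and 6.03 FPKM. Of 7 gastric markers, 4 (TFF1, TFF2, GKN1 and MUC6) were listed at 0 in every library. MUC5AC and CLDN18 did not exceed 0.063 FPKM, whereas GATA6 stood between 0.532 and 0.905 FPKM. The mesenchymal factor ZEB1 was at 7.05 and 19.2 FPKM in control cells and at 2.88 and 2.92 FPKM with GLUP. Of 4 blood markers, 2 (CD3E and HBB) were listed at 0 in every library, and the 2 endothelial markers that could be matched did not exceed 0.0045 FPKM in sum. The epithelial sum was higher in both GLUP libraries (6.03 and 5.29 FPKM) than in both control libraries (3.07 and 3.82 FPKM). It was made up mostly of the keratins KRT8, KRT18 and KRT19, whereas the defining markers CDH1 (0.0687 and 0.0799 FPKM in control cells, listed at 0 in both GLUP libraries) and EPCAM (0.124 and 0.0766 against 0.0451 and 0 FPKM) were near 0 and lower with GLUP, and the part of this sum and of ZEB1 in the results below was not tested.

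In the values as deposited, most cascade genes had a lower mean with GLUP and NF2 a higher one, but no member passed the adjusted test. With the trend along GC content removed, 3 of the 5 members tested were above 0 and 2 below. That correction also takes out the overall shift between libraries. With each library only centred on its median, 4 of the 5 were below 0 and 1 above. Of the 10 members, 8 had a log2 fold change below 0 and 2 above 0. Of these 10, 6 were lower in each GLUP library than in either control library. The share was 26.5% of the 28873 genes with a value above 0 in any library, most of which had a mean under 1 FPKM. Among the 7588 genes that reached 1 FPKM it was 49.7%. Within these it ran from 80.4% in the bin with the lowest GC content to 11.5% in the bin with the highest. The 26.5% is therefore not a like-for-like background for the 10 members. The mean over the 4 libraries reached 1 FPKM, the minimum for testing, in 5 members (MOB1A, STK3, NF2, STK4 and SAV1). Among these, MOB1A, STK3, STK4 and SAV1 were lower in both GLUP libraries than in both control libraries, which was the case for 49.7% of the 7588 genes tested. NF2 was higher in both, as were 17.5% of the genes tested. None of the 5 had an adjusted p under 0.05 in limma with Benjamini-Hochberg adjustment over all genes tested (0.0264% of the genes tested did), and 3 had an unadjusted p under 0.05, of which 2 were lower and 1 was higher (31.7% of the genes tested, 25.4% lower and 6.37% higher). A log2 fold change below 0 was also found in 66.7% of the genes tested, and 5 members are too few to be set apart from these shares. The RNA is from whole cultures, so that less RNA of a gene per cell and fewer cells that express it cannot be told apart.

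**Figure D1:**
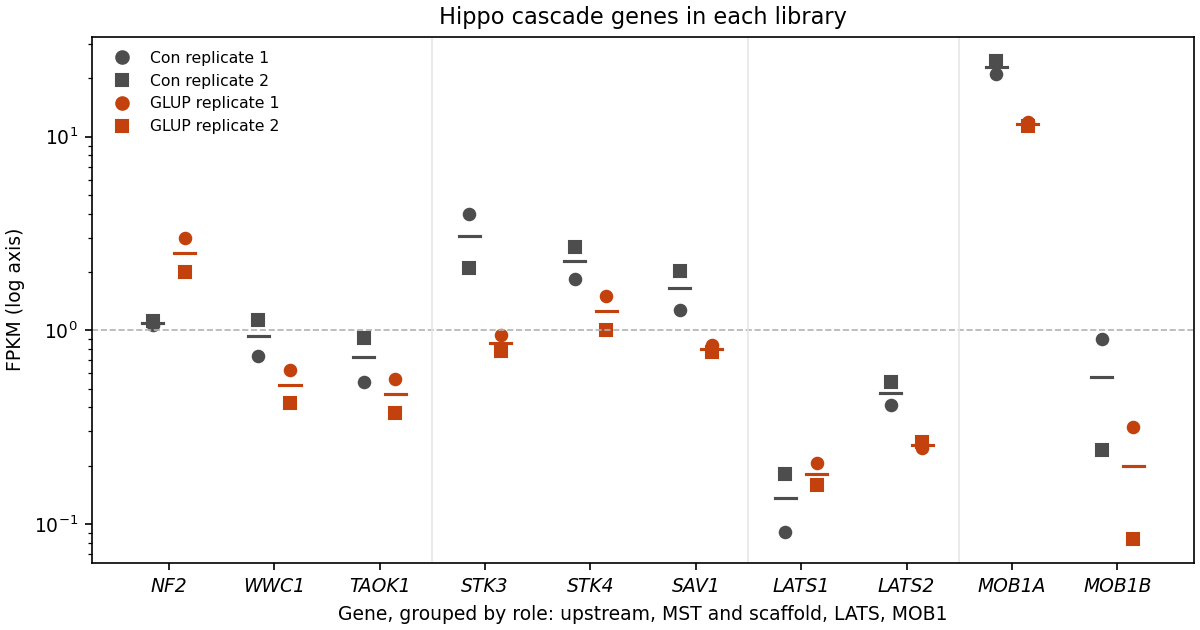
FPKM of the 10 cascade genes on a log axis, with 1 point per library (grey, Con; orange, GLUP; circle, replicate 1; square, replicate 2), a bar at each group mean and a dashed line at 1 FPKM. MOB1A stands above all other members in every library, and NF2 is the member whose GLUP points lie above its Con points without overlap.

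The levels of the members spanned a wide range. MOB1A had a mean of 17.3 FPKM over the 4 libraries, followed by STK3 with 1.96, NF2 with 1.79, STK4 with 1.76, SAV1 with 1.23, WWC1 with 0.727, TAOK1 with 0.596, MOB1B with 0.386, LATS2 with 0.365 and LATS1 with 0.159 FPKM. Among neighbours in this order, only MOB1A and STK3, and LATS2 and LATS1, had ranges over the 4 libraries that did not overlap. By group means, STK3, NF2 and STK4 exchanged places between the groups. STK3 had the highest mean of the 3 in control cells (3.06 FPKM) and the lowest with GLUP (0.863 FPKM). NF2 had the lowest in control cells (1.09 FPKM) and the highest with GLUP (2.5 FPKM). In control replicate 2, however, STK4 (2.68 FPKM) was above STK3 (2.1 FPKM). MOB1A made up 66.1% and 69.3% of the summed FPKM of the 10 members in the control libraries and 59.1% and 65.8% in the GLUP libraries. The sum itself was 32.1 and 35.6 FPKM in control cells and 20.1 and 17.1 FPKM with GLUP, with no overlap between the groups. Without MOB1A it was 10.9 FPKM in each control library and 8.24 and 5.86 FPKM in the GLUP libraries. These sums were not scaled for the shift between libraries. The median FPKM of the genes tested was 4.59 and 4.24 in the control libraries and 3.33 and 3.21 in the GLUP libraries.

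Upstream of the kinases, NF2 was the member that was higher with GLUP. NF2 (ENSG00000186575, chromosome 22 from 29999545 to 30094587 on GRCh37) encodes merlin, a tumour suppressor that brings LATS to the membrane. It stood at 1.06 and 1.12 FPKM in control cells and at 2.99 and 2.01 FPKM with GLUP. Both GLUP libraries were above both control libraries, and the control libraries differed from each other by less than the GLUP libraries did. The ratio of the group means was 2.30, and on the log2(FPKM + 1) scale the difference was 0.73 (standard error 0.26, 95% interval 0.08 to 1.38, adjusted p = 0.134 from limma). As the median of all genes tested was −0.36 on this scale, NF2 lay 1.09 above it.

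WWC1 and TAOK1 had means under 1 FPKM and were outside the main test. WWC1 (ENSG00000113645, chromosome 5 from 167718650 to 167899308), the scaffold KIBRA, was measured at 0.733 and 1.13 FPKM in control cells and at 0.622 and 0.423 FPKM with GLUP. The groups did not overlap as deposited, but they did once each library was divided by its median over the genes tested. In the fit over all 28873 genes above 0, its log2 fold change was −0.34 (adjusted p = 0.575 from limma). TAOK1 (ENSG00000160551, chromosome 17 from 27717381 to 27878921), a kinase that phosphorylates MST, was measured at 0.543 and 0.909 FPKM in control cells and at 0.558 and 0.374 FPKM with GLUP. Its groups overlapped, since GLUP replicate 1 lay above control replicate 1 (log2 fold change −0.23, adjusted p = 0.583 from limma in the same fit).

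Both MST kinases and their scaffold were lower in both GLUP libraries. STK3 (ENSG00000104375, on chromosome 8), which encodes MST2, stood at 4.01 and 2.10 FPKM in control cells and at 0.949 and 0.778 FPKM with GLUP. The control libraries were further apart than the GLUP libraries, yet the lower of them was above both. The control mean was 3.54 times the GLUP mean, and the log2 difference was −1.08 (standard error 0.31, 95% interval −1.86 to −0.31, adjusted p = 0.107 from limma). Leaving out control replicate 2 gave −1.43 and leaving out control replicate 1 gave −0.74, so that the size of the difference followed the control library.

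STK4 (ENSG00000101109, chromosome 20 from 43595135 to 43708662), which encodes MST1, was at 1.85 and 2.68 FPKM in control cells and at 1.51 and 1.00 FPKM with GLUP. The gap between the nearest libraries of the groups was smaller than the spread within each group, and after division by the library medians the groups overlapped. The log2 difference was −0.53 (standard error 0.28, 95% interval −1.21 to 0.15, adjusted p = 0.228 from limma). SAV1 (ENSG00000151748, chromosome 14 from 51098776 to 51135024), the WW-domain scaffold that binds MST, was at 1.28 and 2.02 FPKM in control cells and at 0.838 and 0.768 FPKM with GLUP. All 4 values were close to the testing minimum, with both GLUP libraries lowest. Its log2 difference was −0.54 (standard error 0.25, 95% interval −1.16 to 0.08, adjusted p = 0.194 from limma). SAV1 is uncertain, because 21.2% of the 50-base windows of its longest transcript also occur in a transcript of another gene. ATL1, on the opposite strand, shares 1789 exon bases with it, and whether counting used strand is not given in the sources used here. ATL1 stood at 4.0 and 6.38 FPKM in control cells and at 3.28 and 2.02 FPKM with GLUP. For the other members at most 3.14% of such windows occurred elsewhere.

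The LATS kinases, which phosphorylate YAP and TAZ, were the least abundant step of the cascade. LATS1 (ENSG00000131023, chromosome 6 from 149979289 to 150039241) was measured at 0.0904 and 0.181 FPKM in control cells and at 0.206 and 0.159 FPKM with GLUP, and the groups overlapped. LATS2 (ENSG00000150457, chromosome 13 from 21547175 to 21635725), the member with the M-CAT core in its promoter window, was measured at 0.412 and 0.540 FPKM in control cells and at 0.246 and 0.264 FPKM with GLUP. Both GLUP libraries of LATS2 were lower, and the ratio of control to GLUP means was 1.87. In the fit over all genes above 0 the log2 fold changes were 0.06 for LATS1 (adjusted p = 0.734 from limma) and −0.23 for LATS2 (adjusted p = 0.575 from limma), with 95% intervals of −0.19 to 0.31 and −0.66 to 0.19. A pseudocount of 1 shrinks differences at this level, and with 0.1 in its place they were 0.28 and −0.69.

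MOB1A (ENSG00000114978, chromosome 2 from 74379655 to 74406025), which binds and activates LATS, was the only abundant member. It stood at 21.2 and 24.7 FPKM in control cells and at 11.9 and 11.3 FPKM with GLUP. Replicates lay close together and the groups were well apart, with a control mean 1.98 times the GLUP mean. The log2 difference was −0.92 (standard error 0.31, 95% interval −1.68 to −0.16, adjusted p = 0.122 from limma). It was −0.58 with each library centred on its median, where the unadjusted p was 0.114 in limma. MOB1B (ENSG00000173542, chromosome 4 from 71768043 to 71888166), its paralog, was measured at 0.902 and 0.242 FPKM in control cells and at 0.315 and 0.0836 FPKM with GLUP, so that the groups overlapped and the control libraries spread more than the groups differed. It shares 199 exon bases with DCK on the same strand. In the fit over all genes above 0 its log2 fold change was −0.36 (adjusted p = 0.575 from limma).

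The MST, LATS and MOB1 steps of the cascade are each run by a pair of paralogs, and the share of one gene in its pair does not depend on how a library was scaled. MOB1A made up between 95.9% and 99.3% of the summed FPKM of the MOB1 pair in all 4 libraries. STK3 made up 68.4% and 43.9% of the MST pair in the control libraries and 38.5% and 43.8% with GLUP, so that control replicate 1 stood apart and control replicate 2 was level with the GLUP libraries. LATS1 made up 18.0% and 25.1% of the LATS pair in control cells and 45.6% and 37.5% with GLUP, with no overlap between the groups. These shares rest on low values, between 0.0904 and 0.54 FPKM for the LATS pair, and LATS1 alone overlapped between the groups. Unlike the shares, log2 ratios of FPKM + 1 depend on the scaling of a library, because of the pseudocount. On the scale of log2 ratios of FPKM + 1, the GLUP groups differed from the control groups by −0.55 for STK3 over STK4 (exact permutation test, two-sided, p = 0.667), by 0.29 for LATS1 over LATS2 (exact p = 0.333) and by −0.56 for MOB1A over MOB1B (exact p = 0.333). The last turned to 0.11 (exact p = 1) with a pseudocount of 0.1, and the shares of MOB1A overlapped between the groups. With 2 libraries against 2 the smallest p this test allows is 0.333, so none of the 3 comparisons could pass a threshold of 0.05, with or without adjustment over the 3.

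The control libraries decided which members passed. Without control replicate 1, 3 of the 5 members tested (MOB1A, STK3 and SAV1) had an adjusted p under 0.05 in limma and were lower with GLUP, as were 34.6% of all genes tested. Without control replicate 2, 2 (STK3 and MOB1A) did, against 15.8% of all genes tested. In both fits the lone control library is assumed to vary like the GLUP pair, whose replicates lay closer together. Without either GLUP library, none of the 5 members had an unadjusted p under 0.05 in limma.

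**Figure D2:**
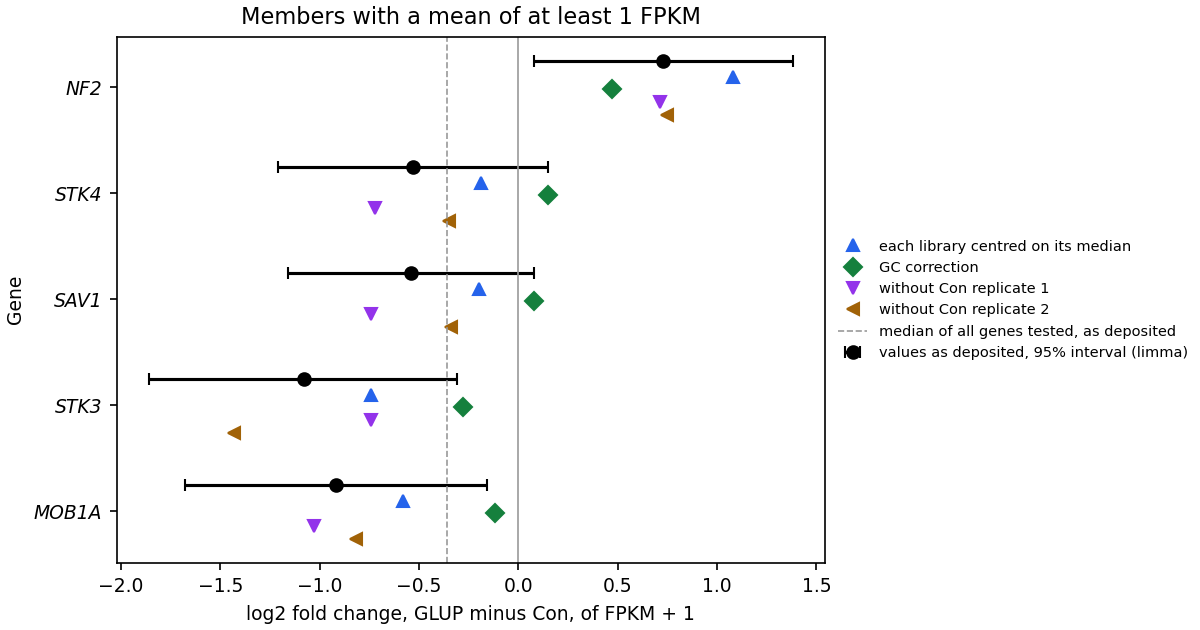
Log2 fold change (GLUP minus Con, of FPKM + 1) of the 5 members tested, with the limma estimate and its 95% interval on the deposited values (black) and the estimates after centring, after GC correction and without each control library. The GC-corrected estimates of STK4 and SAV1 lie above 0 (0.15 and 0.08), and NF2 stays above 0 in every setting shown.

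Across the genes tested, fold changes tended to be higher where the GC content of the transcript was higher. The 5 members tested had the sign of the median of genes of like GC content. Whether composition has a part in this was not tested. Across the 7570 genes tested with a known GC content, fold change and GC content of the longest transcript had a Spearman rho of 0.577, given as a description since genes share the libraries. The genes were split into 5 bins of equal size by GC content. STK3 (37.35% GC) and MOB1A (37.28%) were in the bin with the lowest GC content, whose median log2 fold change was −0.78, and they stood at −1.08 and −0.92. STK4 (40.81%) and SAV1 (42.47%) were in the next bin, whose median was −0.64, and stood at −0.53 and −0.54. NF2 (55.61%) was in the bin with the highest GC content, whose median was 0.44, and stood at 0.73. In the lowest bin 80.4% of genes were lower in both GLUP libraries, and in the highest bin 47.3% were higher in both. The GC correction took out the trend along GC content and the overall shift between libraries together. After it the log2 fold changes were −0.28 for STK3, −0.12 for MOB1A, 0.15 for STK4, 0.08 for SAV1 and 0.47 for NF2. None of the 5 then had an unadjusted p under 0.05 in limma, against 18.3% of the genes in that fit. With centring alone they were −0.74 for STK3, −0.58 for MOB1A, −0.19 for STK4, −0.2 for SAV1 and 1.08 for NF2.

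Of the members under 1 FPKM, MOB1B (34.07% GC) and TAOK1 (40.09%) were in the lowest and the next bin and stood at −0.36 and −0.23. LATS2 (51.77% GC) and WWC1 (54.36%) were in the bin below the highest, whose median log2 fold change was 0.02, and stood at −0.23 and −0.34. In that bin 31.4% of genes were lower in both GLUP libraries and 25.2% were higher in both. The bins were built from the genes tested, so members under 1 FPKM were placed in them by GC content only. LATS1 (39.02%) was in the lowest bin and stood at 0.06, with overlapping groups. Over all 10 members the Spearman rho with GC content was 0.511, a description over genes of the same libraries. Low values are compressed by the pseudocount, so these are compared by sign and not by size.

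**Figure D3:**
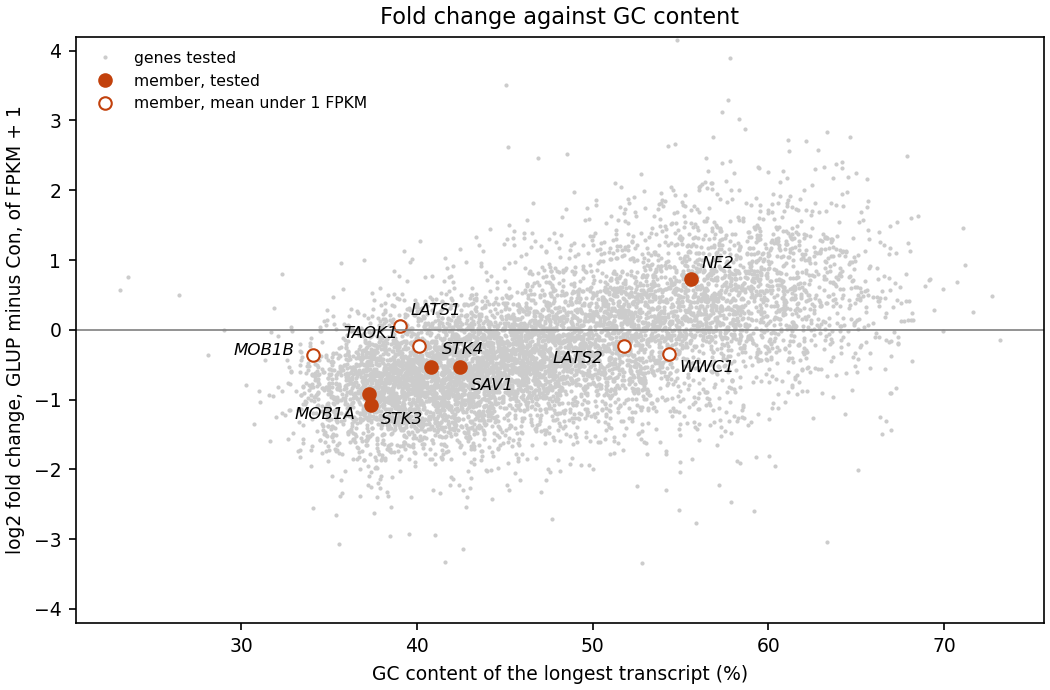
Log2 fold change (GLUP minus Con, of FPKM + 1) against the GC content of the longest transcript in percent, for the genes tested (grey) and the 10 cascade genes (orange, filled where tested and open where the mean was under 1 FPKM). The cloud slopes upward from left to right, MOB1A and STK3 lie low at about 37% GC, and NF2 lies high at 55.61%.

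The wider pathway was described by 7 lists of 77 genes, of which 36 had a mean of at least 1 FPKM. None of the 36 had an adjusted p under 0.05 in limma, 14 had an unadjusted p under 0.05 and were lower with GLUP, and 1 (ZYX) was higher, against 25.4% and 6.37% of all genes tested. The median log2 fold change of the 36 was −0.59, against −0.36 for all genes tested, and 26 were below 0 and 10 above 0. With each library centred on its median, 22 were below 0 and 14 above 0. With the GC trend removed, the median was −0.06, and 21 were below 0 and 15 above 0. Of the 36, 7 then had an unadjusted p under 0.05 in limma, against 18.3% of the genes in that fit.

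Inhibitors of MST, the STRIPAK complex with its PP2A phosphatase, had the lowest median of the lists in the values as deposited. This order did not hold in every setting. Without control replicate 1 their median was −0.95, against −1.06 for the genes for YAP/TAZ retention and turnover. For genes whose mean reached 5 FPKM the medians of these lists were −0.73 and −0.89. Of 17 genes 11 were tested, and 6 were lower with an unadjusted p under 0.05 in limma, against 25.4% of all genes tested. None was higher at that threshold. As deposited the median of this list was −0.98, or −0.48 with the GC trend removed. In that fit 3 of the 11 had an unadjusted p under 0.05 in limma, against 18.3% of its genes. STRN3, a striatin scaffold of the complex, stood at 15.3 and 62.3 FPKM in control cells and at 3.31 and 3.04 FPKM with GLUP, and control replicate 2 was far above the rest (log2 fold change −2.94, adjusted p = 0.1 from limma). PPP2R1A, the main PP2A scaffold subunit, was the highest of the list, at 4.36 and 3.68 FPKM in control cells and at 6.80 and 5.89 FPKM with GLUP (log2 fold change 0.55, adjusted p = 0.226 from limma).

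Kinases parallel to MST or of the NDR family had a median of −0.65 over the 7 tested of 12. Of these, 3 were lower with an unadjusted p under 0.05 in limma, against 25.4% of all genes tested. With each library centred on its median, none had an unadjusted p under 0.05. With the GC trend removed, the median was −0.04 and 1 had an unadjusted p under 0.05, against 18.3% of the genes in that fit. MAP4K3, which can phosphorylate LATS in place of MST, was at 1.41 and 2.17 FPKM in control cells and at 0.620 and 0.384 FPKM with GLUP (log2 fold change −0.89, adjusted p = 0.107 from limma). STK38, an NDR kinase related to LATS, was at 1.01 and 0.876 FPKM against 1.22 and 0.926 FPKM (log2 fold change 0.09, adjusted p = 0.798 from limma), and its groups overlapped. The apical and junctional scaffolds were mostly under the testing minimum, with 3 of 18 tested. Of these, 1 was lower with an unadjusted p under 0.05, against 25.4% of all genes tested. Their median turned from −0.20 to 0.15 with centring and to 0.30 with the GC trend removed. PATJ, a polarity protein, stood at 2.06 and 5.68 FPKM against 0.894 and 0.981 FPKM (log2 fold change −1.22, adjusted p = 0.122 from limma), and PTPN14, a phosphatase that binds YAP, had a log2 fold change of −0.06 (95% interval −0.62 to 0.50).

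Of the 6 RASSF adaptors, which bind MST through its SARAH domain, RASSF1 alone was tested. It stood at 1.91 and 1.14 FPKM in control cells and at 2.93 and 2.33 FPKM with GLUP, higher in both GLUP libraries (log2 fold change 0.54, adjusted p = 0.233 from limma), but −0.06 with the GC trend removed, and it overlaps RASSF1-AS1 on the opposite strand. Inhibitors of LATS were mixed, with a median of −0.46 over the 5 tested of 10, which was 0.28 with the GC trend removed and 0.0 without control replicate 1. CUL4A, a ubiquitin ligase scaffold that can lead to loss of LATS, was at 3.38 and 2.93 FPKM in control cells and at 0.388 and 1.21 FPKM with GLUP (log2 fold change −1.24, adjusted p = 0.1 from limma), whereas ZYX, the LIM protein zyxin, was at 1.05 and 0.314 FPKM against 2.28 and 2.04 FPKM (log2 fold change 0.94, adjusted p = 0.114 from limma). Without control replicate 1, 25 of the 36 genes had an adjusted p under 0.05 in limma, and without control replicate 2, 10 did, against 53.2% and 18.7% of all genes tested.

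The genes for YAP/TAZ retention and turnover, mostly 14-3-3 proteins that hold phosphorylated YAP in the cytoplasm, had a median of −0.62 over the 7 tested of 11. Of these, 3 were lower at an unadjusted p under 0.05 in limma, against 25.4% of all genes tested. With each library centred on its median, none had an unadjusted p under 0.05. With the GC trend removed, the median was −0.06 and 1 had an unadjusted p under 0.05, against 18.3% of the genes in that fit. YWHAH was at 16.8 and 21.7 FPKM in control cells and at 7.94 and 8.95 FPKM with GLUP (log2 fold change −1.09, adjusted p = 0.108 from limma). CSNK1E, a kinase that primes YAP for degradation, was at 4.65 and 1.42 FPKM against 4.57 and 2.95 FPKM, with overlapping groups (log2 fold change 0.34, adjusted p = 0.617 from limma). Among the effectors, WWTR1, which encodes TAZ, stood at 1.5 and 3.03 FPKM against 2.80 and 2.20 FPKM and did not separate the groups (log2 fold change 0.14, adjusted p = 0.789 from limma). The YAP1 and TEAD4 values of the same libraries were 0.971 and 1.07 FPKM against 0.228 and 0.638 FPKM, and 1.71 and 0.226 FPKM against 1.46 and 1.36 FPKM.

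**Figure D4:**
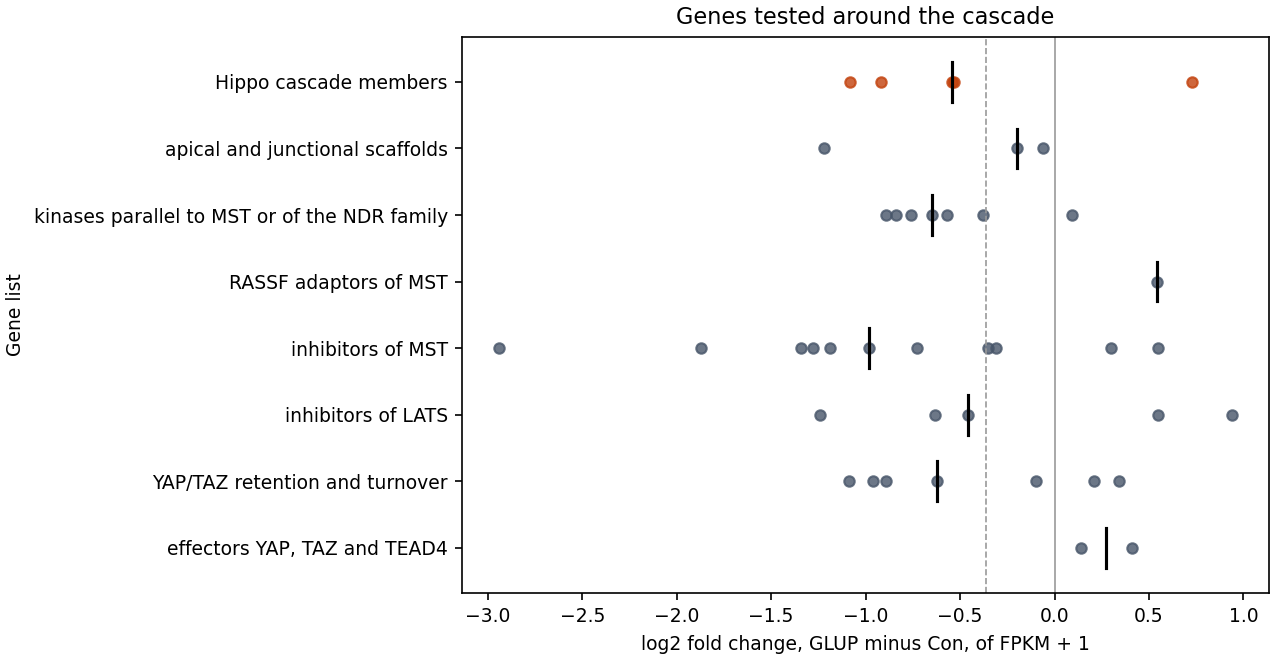
Log2 fold change (GLUP minus Con, of FPKM + 1) of each gene tested in the cascade (orange) and in the 7 lists around it (grey-blue), with a black bar at each median, a solid line at 0 and a dashed line at the median of all genes tested (−0.36). The inhibitors of MST reach furthest to the left, and each list with more than 3 genes has genes on both sides of 0.

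The pattern of MOB1A over the 4 libraries was shared by many genes. By Euclidean distance between centred log2(FPKM + 1) values, the nearest of the genes tested were FAM76B, LSM5 and LAMTOR5, at distances of 0.0326, 0.0529 and 0.0562, and 367 genes lay within 0.25. FAM76B, the nearest, was at 2.61 and 3.15 FPKM in control cells and at 1.05 and 0.941 FPKM with GLUP. A likeness over 4 libraries is a description only.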

How the data were processed

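RNA-seq of HGC-27 cells (2 Con and 2 GLUP libraries) was used. The authors deposited FPKM values, one row per gene ID, and analysed the reads on the Majorbio platform. Per the labels, the submitters' processing notes name HISAT2, Cufflinks and RSEM, without roles or versions, and the build GRCh38.p10, whereas the row identifiers have the form of GENCODE annotation lifted to GRCh37. Which annotation, gene lengths and strand setting were used is not given in the sources used here. Depth is unknown. The file has 62492 rows, of which 49 are second pseudoautosomal copies, and rows of one ID were summed to 62443 genes. Symbols (99.55% of IDs), positions, overlaps and GC content came from GENCODE version 44 lifted to GRCh37. Promoter windows came from RefSeq on GRCh38.p14.

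Values were analysed as log2(FPKM + 1) with limma 3.58.1 in R 4.3.3 (mean-variance trend, Benjamini-Hochberg over the 7588 genes whose mean reached 1 FPKM). Differences are GLUP minus Con on this scale, which understates the change of low genes. Nothing says that replicates were separate cultures beyond the methods' mention of biological replicates, so p-values measure the spread between these libraries. The fit was tested on simulated data. Members and lists were chosen with earlier results of these data known. Genes named were all members, the lowest and the highest tested gene of each list, YAP1, WWTR1, TEAD4, and the 3 genes nearest to the most abundant member. Other named genes were markers, overlapping genes, and those of the closing observations, which were chosen after their values were seen. Alternatives were a pseudocount of 0.1, other filters (a mean of 5 FPKM, all 28873 genes above 0), centring, quantile normalization, a GC correction (lowess, span 0.3), the replicate number as a block, no trend and leaving out each library. Equal replicate numbers are not stated to mark a shared day. The value of 1 blood marker is not reported here.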

Additional observations from a re-analysis of the deposited data

How the results depend on the processing

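Over the alternatives, no member had an adjusted p under 0.05 in limma except without control replicate 1 (3 members) or control replicate 2 (2 members), a range of 0 to 3 over the libraries left out, and for genes of the 7 lists the range was 0 to 25. The number of members with an unadjusted p under 0.05, 3 as deposited, was 2 with centring and 2 with quantile normalization, where MOB1A no longer had one, 1 for genes whose mean reached 5 FPKM, where only MOB1A was tested, 0 with the GC correction, 0 with the replicate block and the GC correction together, and 0 to 5 with a library left out. The median of the members tested relative to all genes tested was −0.19. It was −0.46 with a pseudocount of 0.1, −0.50 for genes whose mean reached 5 FPKM and 0.08 with the GC correction, with or without the replicate block, and ran from −0.40 to −0.01 with a library left out. STK4 and SAV1 turned to 0.15 and 0.08 under the GC correction, with or without the block. The cause of these changes was not tested. The other alternatives, leaving out libraries included, kept the sign of all 5 members tested. With a block for the replicate number and no other change, 3 members again had an unadjusted p under 0.05 and none an adjusted p under 0.05. Same-numbered libraries deviated together with a Pearson r of 0.126 across genes, but with 2 pairs and no shared day stated they share only a number. Division by library medians, chosen after the data were seen, kept the sign of all 10 members, made the groups of STK4 and WWC1 overlap and separated those of LATS1. The difference in the log2 ratio of MOB1A to MOB1B was 0.11 with a pseudocount of 0.1. With a library left out it ran from −0.97 to −0.15, that of STK3 to STK4 from −1.08 to −0.02 and that of LATS1 to LATS2 from 0.25 to 0.33. Among the further values for single members, 72 kept their direction and their side of an unadjusted p of 0.05 or moved by less than 1 SD, 14 lost an unadjusted p under 0.05, 2 gained one and 19 moved by over 1 SD. The unknown depth limits what can be said of members under 1 FPKM.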

Other observations

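Among genes around the cascade that the text has not yet described, subunits of PP2A, the phosphatase that STRIPAK brings to MST, lay on both sides of 0, although none had an adjusted p under 0.05 in limma. The catalytic subunit PPP2CA stood at 4.65 and 5.42 FPKM in control cells and at 1.56 and 1.71 FPKM with GLUP, although PPP2CA overlaps another gene on the same strand, and the minor scaffold subunit PPP2R1B at 5.29 and 3.40 FPKM against 1.43 and 0.929 FPKM. The main scaffold PPP2R1A, described above, was higher in both GLUP libraries. PPP2CB, a further PP2A subunit, stood at 4.76 and 3.05 FPKM in control cells and at 1.37 and 1.52 FPKM with GLUP. PPP2CA, PPP2R1B, PPP2CB and PPP2R1A had GC contents of 39.87%, 42.41%, 47.58% and 53.57%. PDCD10, an adaptor of STRIPAK, stood at 38.7 and 52.3 FPKM in control cells and at 11.0 and 12.2 FPKM with GLUP (log2 fold change −1.87, adjusted p = 0.1 from limma).

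The paralogs of WWC1 also lay apart. WWC2 stood at 1.23 and 1.81 FPKM in control cells and at 0.395 and 0.331 FPKM with GLUP, with a mean of 0.942 FPKM that left it just under the testing minimum. WWC3 stood at 0.478 and 0.443 FPKM against 0.457 and 0.565 FPKM, with overlapping groups. WWC2 and WWC3 had GC contents of 43.2% and 54.83%. These genes were chosen after their values were seen.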
